A study of Mus musculus with 2 samples.

Results

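Trp53 encodes p53, and it is described here together with 9 genes that p53 is known to switch on, namely Mdm2, Pmaip1, Bbc3, Bax, Plk2, Ccng1, Trp53inp1, Sesn2 and Gadd45a. The 10 symbols were listed by name and all were found, once each, among the 31053 genes of both count matrices. The study profiled single mammary luminal cells of FVB/NJ mice aged 3.5 months, isolated by flow sorting, with a droplet kit that counts the 3′ ends of transcripts. Both genotypes carried the Sox9-GFP reporter, and no group without it was analysed here. The group called WT had the reporter alone, and the group called C3-TAg had the reporter and the C3-TAg transgene, in which the C3(1) promoter of the rat prostatic steroid-binding protein drives the simian virus 40 T antigens. Each group was 1 library, the sources used here do not say how many animals were pooled for it, and neither the reporter nor the T antigens had a row in the matrices, so their RNA was not measured. A difference between the groups therefore has no replicate check and carries no p-value, and every interval below is a 95% interval for counting error alone.

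p53 is a transcription factor that is kept scarce by the ubiquitin ligase MDM2, whose gene is itself a p53 target, so that the pathway holds itself back. Stress signals and the ARF product of Cdkn2a release p53 from MDM2, after which p53 turns on genes for cell cycle arrest, repair, antioxidant defence and cell death. Large T antigen binds p53 and holds it in a form that is abundant as a protein but impaired as an activator, and it also binds the Rb family that restrains the cell cycle. The protein was not measured here. Several of the listed genes are also known to respond to other factors, such as ATF4 in amino acid and endoplasmic reticulum stress (Sesn2, Pmaip1, Bbc3) and FOXO factors (Gadd45a).

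Positions are given for 9 of the 10 genes, on GRCm38 with GENCODE vM21 coordinates. Trp53 (ENSMUSG00000059552) is at chr11:69580359-69591873 on the plus strand and Mdm2 (ENSMUSG00000020184) at chr10:117688875-117710758 on the minus strand. The death genes are Pmaip1 (ENSMUSG00000024521), Bbc3 (ENSMUSG00000002083) at chr7:16308393-16318205, plus, and Bax (ENSMUSG00000003873) at chr7:45461697-45466898, minus. The kinase gene Plk2 (ENSMUSG00000021701) is at chr13:110395046-110400844, plus, and Ccng1 (ENSMUSG00000020326) at chr11:40748552-40755311, minus. Trp53inp1 (ENSMUSG00000028211) is at chr4:11156431-11174379, plus, Sesn2 (ENSMUSG00000028893) at chr4:132492032-132510501, minus, and Gadd45a (ENSMUSG00000036390) at chr6:67035096-67037457, minus. Reads of each gene were counted at its 3′ end.

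The sequences upstream of the genes are shown first, because the listed targets differed between the libraries in both directions. RefSeq promoter windows on GRCm38.p6, each with 250 bases before and 50 after a transcription start, were matched by symbol for 8 of the 10 genes, which gave 10 windows, 3 of them for Bbc3. Pmaip1 and Trp53inp1 had no window. Trp53 is shown as the gene of the factor itself and Ccng1 as a target that was lower in C3-TAg cells of every state compared. Gadd45a is shown as one that was lower in hormone-sensing and casein-high cells but not in casein-low cells pooled as a state. Plk2 is shown as a target that was higher. In the first 3 the capitals mark a match to the p53 decamer, the 10-base element that occurs as a pair in a full p53 response element, and in Plk2 they mark TGACGTCA, the palindrome bound by CREB and ATF factors.
Trp53, chr11:69580109-69580408, plus strand: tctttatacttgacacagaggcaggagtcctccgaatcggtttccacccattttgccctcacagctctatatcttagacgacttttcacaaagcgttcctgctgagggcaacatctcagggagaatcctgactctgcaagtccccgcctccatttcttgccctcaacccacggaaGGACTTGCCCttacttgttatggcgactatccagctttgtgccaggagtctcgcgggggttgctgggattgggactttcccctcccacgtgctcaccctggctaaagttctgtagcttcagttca
Ccng1, chr11:40755237-40755536, minus strand: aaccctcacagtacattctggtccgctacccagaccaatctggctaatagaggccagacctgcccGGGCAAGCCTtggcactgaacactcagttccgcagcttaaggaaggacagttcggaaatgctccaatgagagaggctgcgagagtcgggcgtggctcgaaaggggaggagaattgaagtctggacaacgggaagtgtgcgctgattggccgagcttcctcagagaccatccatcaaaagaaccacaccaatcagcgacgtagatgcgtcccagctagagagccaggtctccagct
Gadd45a, chr6:67037358-67037657, minus strand: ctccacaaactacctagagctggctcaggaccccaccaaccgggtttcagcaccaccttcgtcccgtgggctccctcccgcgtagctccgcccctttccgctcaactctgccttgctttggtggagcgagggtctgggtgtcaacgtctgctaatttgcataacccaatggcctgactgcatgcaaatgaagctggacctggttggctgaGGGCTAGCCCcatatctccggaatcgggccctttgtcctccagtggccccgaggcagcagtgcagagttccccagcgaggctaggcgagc
Plk2, chr13:110394794-110395093, plus strand: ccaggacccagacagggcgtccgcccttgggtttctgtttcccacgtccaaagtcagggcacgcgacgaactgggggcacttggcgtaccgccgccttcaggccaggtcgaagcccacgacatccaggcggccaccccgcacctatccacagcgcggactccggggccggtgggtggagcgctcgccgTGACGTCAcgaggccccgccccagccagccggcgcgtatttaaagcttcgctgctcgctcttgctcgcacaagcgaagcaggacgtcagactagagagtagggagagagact
Both strands were searched for the decamer, for the full p53 site, for TTTNNCGC as an E2F-type element, for TGACGTCA, for the AP-1 element TGANTCA and for the CArG box. The decamer was found in 5 of the 10 windows, those of Trp53, Mdm2, Bax, Ccng1 and Gadd45a, with its first base at -75, -186, -201, -185 and -40 from the start. Of 32851 RefSeq windows of the same length, 8.36% held it. Of the genes with a match, Trp53 passed 1.5-fold upward in C3-TAg over all other cells and in hormone-sensing cells. It stayed under 1.5-fold in casein-high and casein-low non-cycling cells. Mdm2 and Bax stayed within 1.5-fold in every C3-TAg over WT comparison. Ccng1 and Gadd45a were lower, with the limit on Gadd45a just given. No window of Bbc3, Plk2 or Sesn2 held the decamer, and none of the 10 held the full site, which 0.0731% of all windows hold. TGACGTCA was present in the window of Plk2 only, against 1.79% of all windows, and TTTNNCGC in that of Mdm2 only, against 5.17%. The AP-1 element and the CArG box, present in 7.81% and 1.63% of all windows, had no match in the 10. A match describes letters in a window and is neither a bound site nor a cause.

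Cells were placed into states by the share of their unique molecular identifiers (UMIs, each a counted RNA molecule) that came from a few genes. A cell was called hormone-sensing with at least 5 UMIs per 10000 of Areg, Pgr, Esr1 and Cited1 together. All other cells were casein-high when the caseins Csn1s1, Csn1s2a, Csn2 and Csn3 took at least 0.5% of their UMIs and casein-low below that, and cycling with at least 5 UMIs per 10000 of Mki67, Top2a, Cdk1 and Ccnb1. The WT library held 8993 barcodes with 91133082 UMIs, of which 7046 cells were kept, and the C3-TAg library 9575 barcodes with 91932121 UMIs, of which 7914 were kept, at medians of 10296 and 8684 UMIs per cell. WT had 2720 hormone-sensing, 3748 casein-high and 574 casein-low non-cycling cells, and only 2 cells in each cycling state, for which no ratio is given. C3-TAg had 2027 hormone-sensing, 1905 casein-high non-cycling, 586 casein-high cycling, 1796 casein-low non-cycling and 1600 casein-low cycling cells. The libraries shared 20 barcodes, 17 of them among kept cells.

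These states are ranges of a score and not cell types. Within a factor of 2 on either side of the cycling limit lay 868 and 1067 of the C3-TAg other cells, and 523 and 357 C3-TAg cells lay as close to the hormone-sensing limit. The luminal label was checked with Krt8, Krt18, Krt19 and Epcam, which together reached 8411 to 24981 CPM (UMIs of a gene scaled to 1000000 UMIs of the state) in the 8 states with at least 50 cells. The 6 basal markers summed to 16.7 to 212.1 CPM in WT and 112.0 to 547.7 CPM in C3-TAg states. In C3-TAg this sum was nearly all Krt14, 429.3 of 432.4 CPM in casein-high non-cycling cells, where 3 of the 5 measured basal markers were lower than in WT and 2 higher. The WT casein-low state was mixed. Of the 8 states it held the highest summed levels of the 5 immune markers (22.7 CPM, against 0 to 5.16 CPM elsewhere) and of Pecam1 and Cdh5, the endothelial markers (18.4 CPM, against 0.610 to 9.39 CPM), while Cd3e reached 1.27 CPM and Lyz2 was at 0. It also held the basal keratin gene Krt5 at 45.8 CPM and the prolactin receptor gene Prlr at 290.3 CPM. The 10 genes were recomputed without the cells that had at least 5 UMIs per 10000 of non-epithelial markers, 23 WT and 25 C3-TAg cells in all. In casein-low non-cycling cells this took the C3-TAg over WT log2 ratio of Pmaip1 out of its interval, as given with that gene, while those of the other 9 genes stayed inside theirs. The further genes named for that state were not recomputed in this way.

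Trp53 RNA had a greater level in C3-TAg than in WT cells of each of the 3 states that could be compared, with intervals that did not overlap. In hormone-sensing cells it was at 76.2 CPM in WT (72.9 to 79.6) and 140.9 CPM in C3-TAg (135.3 to 146.6). In casein-high non-cycling cells it was at 79.4 and 113.3 CPM, and in casein-low non-cycling cells at 115.9 and 163.3 CPM. The level was highest in the casein-low cycling C3-TAg cells, at 205.5 CPM (198.9 to 212.2), and the casein-high cycling cells had 156.9 CPM. No order could be read between C3-TAg casein-low non-cycling and casein-high cycling cells, between WT casein-low and C3-TAg casein-high non-cycling cells, or between the WT casein-high and hormone-sensing cells, where the intervals overlapped. The log2 ratio of C3-TAg over WT was 0.93 (0.88 to 0.98) over all other cells and 0.89 (0.80 to 0.97) in hormone-sensing cells, but 0.51 and 0.50 in the casein-high and casein-low non-cycling cells, under the 1.5-fold threshold used here to call a gene higher or lower. The wide comparison of all other cells thus includes the difference in the mix of states: cycling cells were 37.1% of C3-TAg other cells and 0.0925% of WT ones. In casein-high and casein-low non-cycling cells the median log2 ratio of all genes tested was 0.28 and 0.29. The Trp53 values of 0.51 and 0.50 include that general shift.

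Mdm2, the ligase gene that reports p53 activity as a classical target, did not reach 1.5-fold in any comparison between the libraries. In WT it was at 58.3 CPM in hormone-sensing, 51.1 CPM in casein-high and 62.3 CPM in casein-low non-cycling cells. In C3-TAg the same states had 71.5, 41.5 and 52.3 CPM, and the cycling states 42.8 and 65.7 CPM. Across the 8 states its highest level was 1.72-fold its lowest, the narrowest range after Bax. The log2 ratio was 0.30 (0.19 to 0.40) in hormone-sensing cells, -0.30 (-0.42 to -0.19) in casein-high and -0.25 (-0.45 to -0.05) in casein-low non-cycling cells, so its direction differed between states while its size stayed small.

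**Figure D1:**
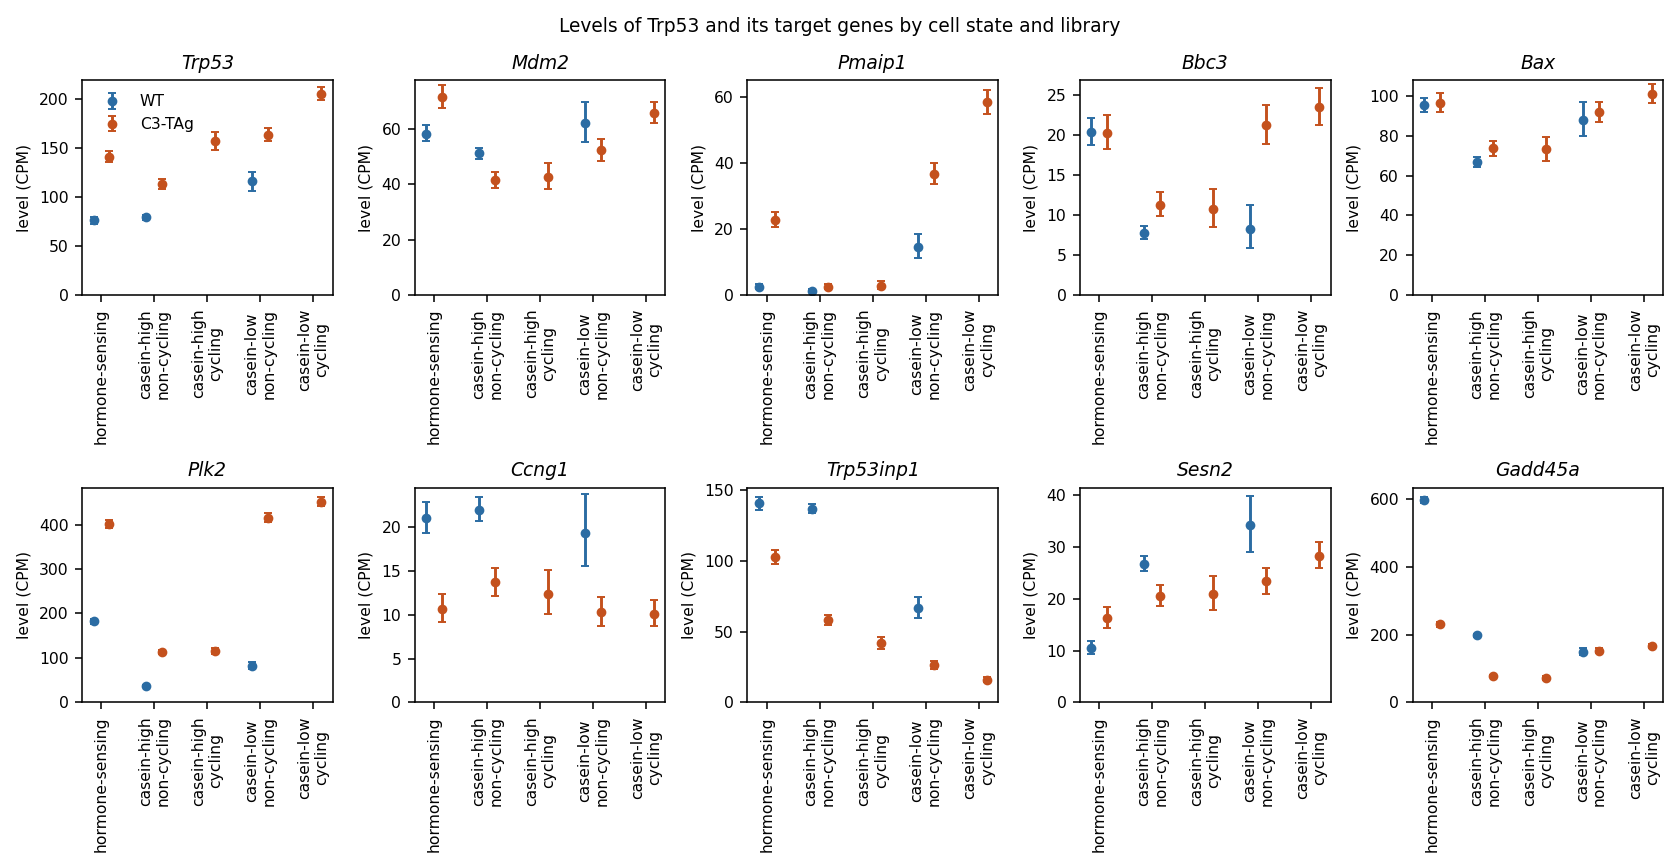
Level of each of the 10 genes (CPM on a linear axis from 0, points) in each cell state of the WT and C3-TAg libraries, with bars for the 95% Poisson counting interval and no WT point for the cycling states, which had 2 cells each. Pmaip1 and Plk2 are highest in casein-low C3-TAg cells, Ccng1 is lower in every C3-TAg state than in every WT state, and Gadd45a is highest in WT hormone-sensing cells.

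Of the 3 genes that promote cell death through the mitochondrion, Pmaip1 varied the most across states and Bax the least. Pmaip1 encodes NOXA, a BH3-only protein that neutralises MCL1. It was at 2.55 CPM in WT hormone-sensing cells (1.98 to 3.23), 1.39 CPM in WT casein-high cells (1.07 to 1.77) and 14.6 CPM in WT casein-low cells (11.4 to 18.5). In C3-TAg it was at 22.8 CPM in hormone-sensing cells, 2.57 and 2.89 CPM in casein-high non-cycling and cycling cells, and 36.7 and 58.4 CPM in casein-low non-cycling and cycling cells. The casein-high cells of both libraries, cycling or not, thus had under 3 CPM, and the highest state had 42.0-fold the level of the lowest. Over all other cells the WT level of Pmaip1 was 2.60 CPM and the C3-TAg level 27.1 CPM, 10.4-fold higher. On the log2 scale that ratio was 3.38 (3.13 to 3.65), but it was 0.89 (0.34 to 1.43) within casein-high and 1.33 (0.96 to 1.71) within casein-low non-cycling cells. The casein-low value was 2.36 (1.85 to 2.91) once cells with non-epithelial markers were left out, and 0.55, under 1.5-fold, when each cell's own CPM was averaged instead of summing the counts. The casein-high value was 0.50 (-0.13 to 1.12), under 1.5-fold, without the cells richest in immediate early RNA.

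Bbc3 encodes PUMA, a BH3-only protein that binds all antiapoptotic BCL2 proteins. It was at 20.4 CPM in WT hormone-sensing cells and 20.3 CPM in C3-TAg hormone-sensing cells, a log2 ratio of -0.01 (-0.21 to 0.19). Outside that state WT had 7.73 CPM in casein-high and 8.26 CPM in casein-low cells, whereas C3-TAg had 11.3 and 21.2 CPM. Bbc3 was therefore within 1.5-fold in casein-high cells, at 0.55 (0.30 to 0.79), and higher in casein-low C3-TAg cells, at 1.36 (0.87 to 1.88). Bax, the pore-forming effector of the mitochondrial outer membrane, lay between 66.8 and 101.0 CPM in all 8 states, and its log2 ratio between the libraries was 0.02 in hormone-sensing, 0.14 in casein-high and 0.06 in casein-low non-cycling cells. Its highest level was 1.51-fold its lowest.

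Plk2, a polo-like kinase of centriole duplication and of the stress response, was higher in C3-TAg in each state, and by more than the median gene. In WT it was at 182.5 CPM in hormone-sensing (177.4 to 187.7), 38.0 CPM in casein-high and 82.6 CPM in casein-low cells. In C3-TAg the corresponding levels were 401.3 CPM (391.8 to 410.9), 113.2 CPM and 415.1 CPM, and the casein-low cycling cells reached 451.6 CPM. The log2 ratio was 2.76 (2.69 to 2.82) over all other cells, 1.14 (1.08 to 1.19) in hormone-sensing, 1.58 (1.49 to 1.67) in casein-high and 2.33 (2.18 to 2.48) in casein-low non-cycling cells. With trimmed-mean (TMM) scaling these became 2.30, 0.99, 1.31 and 2.04.

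Ccng1, Trp53inp1 and Gadd45a were lower in C3-TAg, each with its own pattern. Ccng1 encodes cyclin G1, which recruits a phosphatase to MDM2. It was at 19.3 to 21.9 CPM in the 3 WT states and at 10.1 to 13.7 CPM in the 5 C3-TAg states, without overlap of the levels. Its log2 ratio was -0.98 (-1.23 to -0.73) in hormone-sensing, -0.68 (-0.88 to -0.49) in casein-high and -0.91 (-1.30 to -0.52) in casein-low non-cycling cells.

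Trp53inp1 encodes a nuclear and autophagosomal protein that promotes p53-dependent death and autophagy. In WT it was at 140.4 CPM in hormone-sensing, 136.6 CPM in casein-high and 66.7 CPM in casein-low cells. In C3-TAg it was at 102.7 CPM in hormone-sensing cells and went down from 58.0 CPM in casein-high non-cycling to 41.8, 26.6 and 15.98 CPM in casein-high cycling, casein-low non-cycling and casein-low cycling cells. The log2 ratio was -1.24 (-1.33 to -1.15) and -1.33 (-1.55 to -1.11) in the casein-high and casein-low non-cycling cells, but -0.45 (-0.53 to -0.37) in hormone-sensing cells, within 1.5-fold. With TMM scaling the last value was -0.60, past the threshold.

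Gadd45a encodes a stress sensor that binds PCNA and activates p38 and JNK kinases. It was at 597.5 CPM in WT hormone-sensing cells (588.3 to 606.8), its highest state. In C3-TAg this state had 231.3 CPM (224.1 to 238.6), which gave a log2 ratio of -1.37 (-1.42 to -1.32). Casein-high non-cycling cells had 198.0 CPM in WT, 78.6 CPM in C3-TAg and a log2 ratio of -1.33 (-1.41 to -1.26). Casein-low non-cycling cells, pooled as a state, differed from both: they had 150.4 and 153.1 CPM, a log2 ratio of 0.03 (-0.10 to 0.15). Within this state the C3-TAg level was below the WT level in both casein ranges, with intervals that did not overlap. Under 0.05% casein WT had 239.5 CPM (204.4 to 278.8, 94 cells) and C3-TAg 176.4 CPM (168.1 to 185, 1225 cells). From 0.05 to 0.5% WT had 135.1 CPM (124.0 to 146.9, 480 cells) and C3-TAg 104.9 CPM (95.7 to 114.6, 571 cells). The pooled ratio thus includes the difference in the mix of these ranges.

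Sesn2, which encodes sestrin 2, an inhibitor of mTORC1 signalling and an antioxidant, had opposite directions in the 2 compartments. Hormone-sensing cells had 10.4 CPM in WT (9.26 to 11.7), 16.3 CPM in C3-TAg (14.4 to 18.3) and a log2 ratio of 0.64 (0.39 to 0.88). Casein-high non-cycling cells had 26.7 and 20.5 CPM, and casein-low non-cycling cells 34.1 and 23.3 CPM, with log2 ratios of -0.38 (-0.54 to -0.22) and -0.55 (-0.83 to -0.27), both within 1.5-fold. With TMM scaling Sesn2 was at 0.49 in hormone-sensing cells, no longer past the threshold, and at -0.67, -0.65 and -0.83 over all other cells and in the casein-high and casein-low non-cycling cells, past it.

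The counts of listed genes are read against the share of all genes tested that passed the same threshold. Over all other cells 4 of the 10 passed 1.5-fold upward in C3-TAg (Trp53, Pmaip1, Bbc3, Plk2), against 42.8% of 13963 genes tested, and 3 were lower (Ccng1, Trp53inp1, Gadd45a), against 9.99%. In hormone-sensing cells 4 were higher (Trp53, Pmaip1, Plk2, Sesn2), against 22.9% of genes, and 2 lower (Ccng1, Gadd45a), against 9.14%. In casein-high non-cycling cells 2 were higher (Pmaip1, Plk2) and 3 lower (Ccng1, Trp53inp1, Gadd45a), against 27.1% and 10.8%. In casein-low non-cycling cells 3 were higher (Pmaip1, Bbc3, Plk2) and 2 lower (Ccng1, Trp53inp1), against 32.1% and 13.3%. Pmaip1 and Plk2 were higher and Ccng1 was lower in all 4 comparisons. The median log2 ratio of the 10 genes was 0.15, 0.16, -0.08 and 0.04 in these comparisons, beside 0.47, 0.14, 0.28 and 0.29 for all genes. TMM scaling moved the zero point by 0.45, 0.15, 0.27 and 0.28, and under it Trp53 was at 0.48 over all other cells, within 1.5-fold, while in hormone-sensing cells it was at 0.74, past it. Each of these comparisons uses the same pair of libraries.

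**Figure D2:**
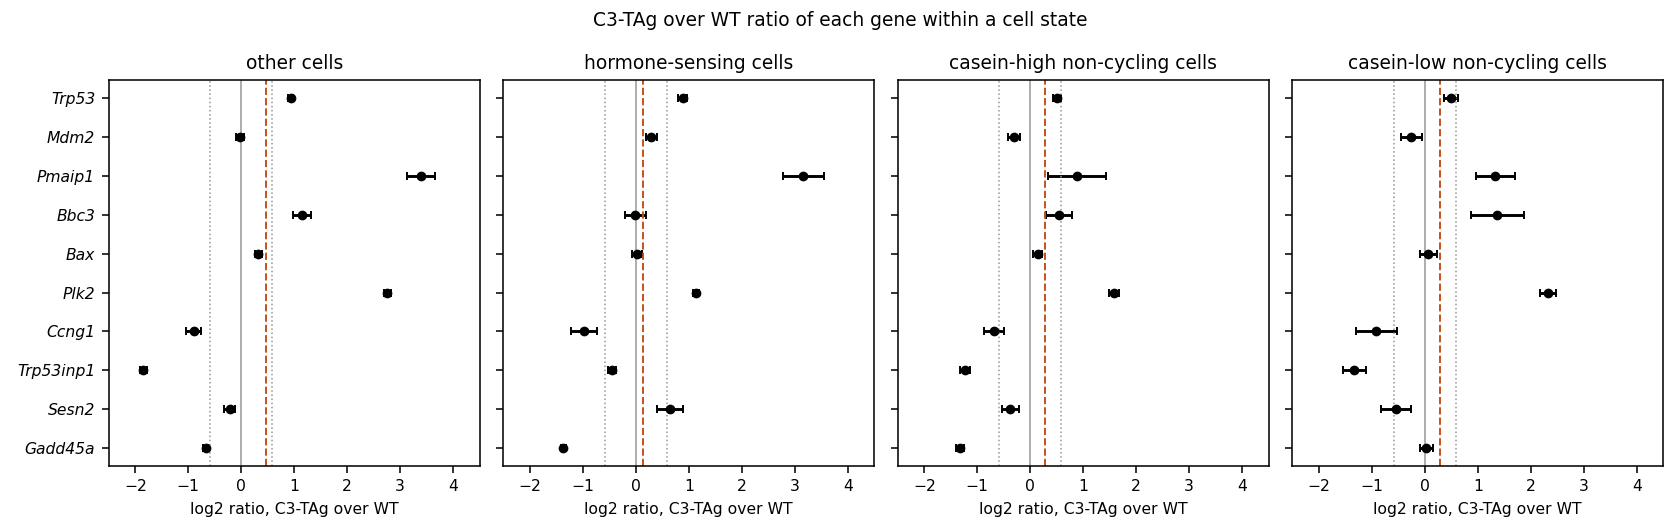
Log2 ratio of C3-TAg over WT for each of the 10 genes (x axis) in 4 sets of cells, with bars for the exact 95% counting interval, dotted lines at a 1.5-fold difference and a dashed line at the median of all genes tested. Pmaip1 and Plk2 lie to the right of the upper dotted line and Ccng1 to the left of the lower one in each panel, while Gadd45a is at 0.03 in casein-low non-cycling cells.

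The hormone-sensing state was not the same set of cells in both libraries, and the ratio of Pmaip1 there rested on this. Areg, which encodes the ligand amphiregulin, carried 933 of 2027 C3-TAg cells over the limit without enough Pgr, Esr1 and Cited1, but only 347 of 2720 WT cells. These C3-TAg cells had 995.5 CPM of Prlr and 62.8 CPM of the pioneer factor gene Foxa1, neither of which the score uses, against 1967 and 125.5 CPM in the 1094 cells that passed on the receptor genes alone. They also had 127.1 CPM of Mki67 and 213.0 CPM of Aldh1a3, a gene of secretory progenitors, against 6.07 and 7.08 CPM, and 24.97% of them were cycling against 0.640%. The WT cells that passed on Areg were set apart too. They had 9998 CPM of 9 secretory markers in sum, the caseins among them, against 869.9 CPM in WT cells that passed on the receptor genes. In C3-TAg these sums were 2036 and 220.0 CPM. Pmaip1 was at 43.3 CPM (38.9 to 48.1) in the C3-TAg cells that passed on Areg and at 4.05 CPM (2.83 to 5.60) in those that passed on the receptor genes. In WT both subsets were low, at 2.86 and 2.4998 CPM. With the score over Pgr, Esr1 and Cited1 alone, the log2 ratio of Pmaip1 in hormone-sensing cells was 0.69 (0.05 to 1.32) in place of 3.16 (2.79 to 3.56), and with cycling cells left out it was 1.95. Both settings were chosen after seeing the data.

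The other members varied less with this split. Trp53 was at 129.5 and 153.3 CPM in the C3-TAg cells that passed on the receptor genes and on Areg, and its log2 ratio over WT was 0.77 with the score without Areg. Plk2 was at 330.1 and 479.2 CPM and kept a log2 ratio of 0.84. Gadd45a was at 217.3 and 246.5 CPM, Trp53inp1 at 107.5 and 97.5 CPM and Ccng1 at 10.6 and 10.7 CPM. Sesn2 had a log2 ratio of 0.65 with that score, and 0.47, within 1.5-fold, when cycling cells were left out of the original one. Among cells that passed on the receptor genes, then, Gadd45a and Ccng1 were lower and Trp53, Plk2, Pmaip1 and Sesn2 higher in C3-TAg, as in the whole state.

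**Figure D3:**
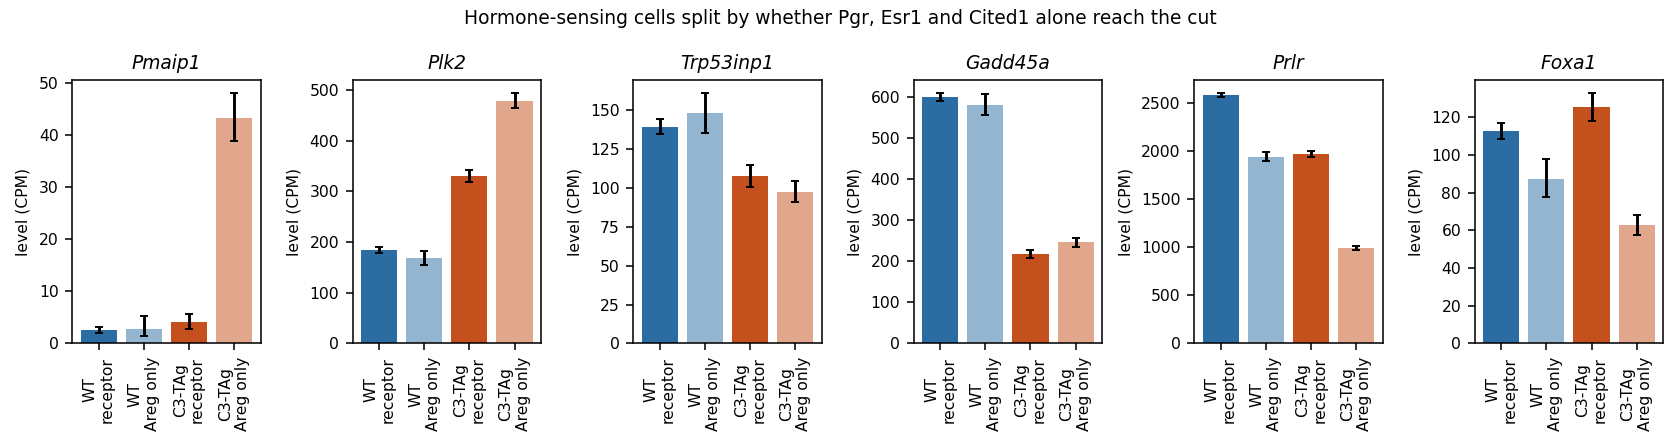
Level (CPM, bars from 0 with 95% Poisson counting intervals) of 4 of the listed genes and of Prlr and Foxa1 in hormone-sensing cells of each library, split into cells that pass the limit on Pgr, Esr1 and Cited1 (receptor) and cells that pass only with Areg. Pmaip1 reaches 43.3 CPM in the C3-TAg cells that pass only with Areg and at most 4.05 CPM in the other 3 bars, and Prlr and Foxa1 are lowest in the same C3-TAg cells.

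Outside the hormone-sensing state, several members followed the casein content of the cells within each library. In C3-TAg non-cycling cells, casein-low over casein-high, 4 of the 10 genes were higher (Pmaip1, Bbc3, Plk2, Gadd45a), against 26% of genes tested, and Trp53inp1 was lower, against 7.95%. Pmaip1 had the widest difference, a log2 ratio of 3.84 (3.43 to 4.27), followed by Plk2 at 1.87, Gadd45a at 0.96 and Bbc3 at 0.91, and Trp53inp1 was at -1.13 (-1.30 to -0.96). In the same comparison within WT, Pmaip1 and Plk2 were higher, against 25.6%, and Trp53inp1 was lower, against 8.22%, with log2 ratios of 3.40, 1.12 and -1.03. The WT value of Pmaip1 was 2.37 (1.71 to 2.99) without the cells with non-epithelial markers. Bbc3, at 0.10 (-0.42 to 0.57), and Gadd45a, at -0.40 (-0.51 to -0.29), did not differ by 1.5-fold within WT. Whether these differences differ between the libraries cannot be tested with 1 library per group.

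The casein share was then divided more finely, with cells with non-epithelial markers left out. Pmaip1 in C3-TAg was at 48.2 CPM in the 1213 cells with under 0.05% casein, 13.03 CPM from 0.05 to 0.5%, 4.10 CPM from 0.5 to 2% and 1.54 CPM at 2% or more. In WT the same ranges had 22.7 CPM (12.4 to 38.1, 82 cells), 4.76, 1.55 and 1.35 CPM, so that Pmaip1 declined with casein in both libraries and the intervals of the 2 libraries overlapped at 2% or more. Before those cells were left out, the lowest WT range had 46.2 CPM in 94 cells. Plk2 in C3-TAg was at 513.5, 220.8, 142.1 and 93.8 CPM, and in WT at 155.8, 72.1, 60.1 and 32.2 CPM, higher in C3-TAg in each range. Trp53inp1 in C3-TAg went the other way, at 20.03, 40.6, 51.8 and 62.2 CPM. In WT it was at 155.8, 54.1, 81.4 and 151.0 CPM, lowest in the second range. The lowest WT range also had 1160 CPM of Prlr and 69.8 CPM of Foxa1, against 122.2 and 6.47 CPM in C3-TAg, so its cells were not alike in the libraries, and the part of that difference in the levels was not tested.

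**Figure D4:**
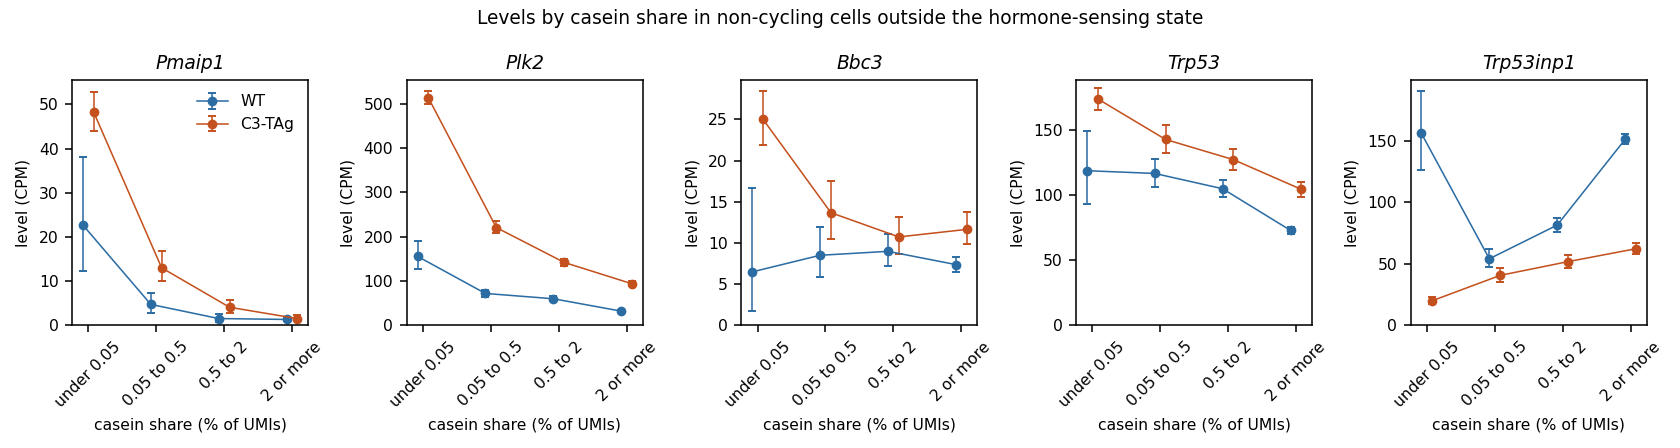
Level (CPM, with 95% Poisson counting intervals) of 5 of the listed genes against the share of UMIs from caseins in non-cycling cells outside the hormone-sensing state, without cells with non-epithelial markers. Pmaip1 and Plk2 go down from left to right in both libraries, and the WT range under 0.05% has 82 cells.

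Few genes differed by 1.5-fold with cycling within a casein class, among the listed genes as among all genes tested. In C3-TAg casein-high cells, cycling over non-cycling, 0 genes were higher and 0 lower, against 12.7% and 3.67% of genes tested. The largest values there were 0.47 (0.37 to 0.57) for Trp53 and -0.47 (-0.65 to -0.30) for Trp53inp1. In casein-low cells Pmaip1 was higher in cycling cells, at 0.67 (0.52 to 0.83), against 10.9% of genes. This value was 0.58 with TMM scaling, 0.51 without the cells richest in immediate early RNA and 0.40 with the state limits halved, each under 1.5-fold. Trp53inp1 was lower in cycling casein-low cells, at -0.73 (-0.96 to -0.51), against 5.7%. Mdm2 and Trp53 each had a log2 ratio of 0.33 there. The non-cycling casein-low cells of C3-TAg still had 280.8 CPM of the 8 cycling markers in sum, against 9.32 CPM in WT, so the non-cycling states of the libraries differ in this respect, and its part in the ratios was not tested.

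Between compartments Gadd45a was called higher in both libraries, while the other members called differed. The counts of higher members were near the shares of all genes given beside them. In WT, hormone-sensing over other cells, Gadd45a was higher at a log2 ratio of 1.63 (1.59 to 1.66), Plk2 at 2.12 (2.04 to 2.19) and Bbc3 at 1.39 (1.20 to 1.58), against 37.5% of genes, and Sesn2 was lower at -1.39 (-1.58 to -1.20), against 21.1%. In C3-TAg the same comparison found Trp53inp1 higher at 1.51 (1.42 to 1.60) and Gadd45a at 0.93 (0.88 to 0.99), against 20% of genes, and 0 members lower, against 24.2%. Plk2 and Bbc3 were at 0.50 and 0.24 there, since their levels in other cells of C3-TAg lay closer to those of hormone-sensing cells. Pmaip1 was at -0.03 (-0.47 to 0.40) in WT and at -0.25 (-0.41 to -0.09) in C3-TAg. The latter was -2.74 with the score without Areg and -1.46 with cycling hormone-sensing cells left out. That value too thus depended on which cells were counted as hormone-sensing. In both settings the other cells stayed the same, so the cells left out were counted on neither side.

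Further genes of the pathway were taken from lists of 30 p53 targets and 14 regulators and relatives. Over all other cells 15 of 30 further targets were higher and 3 lower in C3-TAg, the median of their log2 ratios at 0.70. In hormone-sensing cells 13 of 29 measured were higher and 2 lower (median 0.39), in casein-high non-cycling cells 12 of 29 higher and 6 lower (0.44) and in casein-low non-cycling cells 9 of 30 higher and 4 lower (0.36). Among all genes tested, 42.8% were higher and 9.99% lower over all other cells, and 22.9% and 9.14% in hormone-sensing cells. The shares were 27.1% and 10.8% in casein-high and 32.1% and 13.3% in casein-low non-cycling cells. Medians of all genes were 0.47, 0.14, 0.28 and 0.29 in the same order. Of the further targets, 50%, 44.8%, 41.4% and 30% were higher, the first and last near the shares of all genes. The 44.8% of hormone-sensing cells includes the C3-TAg cells that passed on Areg, and it was not recomputed without them. In WT and C3-TAg, Plk3 was at 21.3 and 55.6 CPM and Epha2 at 50.8 and 111.1 CPM in the whole state. Cells that passed on the receptor genes had 21.7 and 24.8 CPM of Plk3 and 49.6 and 64.7 CPM of Epha2. Bcl2l1 changed little with this split, at 48.2 and 99.7 CPM against 47.4 and 98.7 CPM. Cdkn1a, the p21 inhibitor of cyclin-dependent kinases and the best known p53 target, passed 1.5-fold in 1 of the 4 C3-TAg over WT comparisons, that of casein-high non-cycling cells, where it was lower. It was at 145.0 CPM in other cells of WT and 200.3 CPM in those of C3-TAg, a log2 ratio of 0.47, but in casein-high non-cycling cells it was at 130.1 and 54.5 CPM, a log2 ratio of -1.26 (-1.35 to -1.16). In casein-low non-cycling cells it was at 291.8 and 231.2 CPM, at -0.34, within 1.5-fold. Hormone-sensing cells had 180.4 and 265.9 CPM, at 0.56, also within 1.5-fold, and those that passed on the receptor genes had 179.8 and 170.5 CPM.

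Among the further targets at 20 CPM or more, Ckap2, a spindle protein gene that also follows the cell cycle, had the highest ratio over all other cells, with 1.30 CPM for WT, 25.7 CPM for C3-TAg and a log2 ratio of 4.31 (3.95 to 4.68). Gdf15, a secreted stress cytokine, was at 4.61 and 24.1 CPM there and at 0.225 and 12.9 CPM in hormone-sensing cells. That last level was 25.2 CPM in the C3-TAg cells that passed on Areg and 1.57 CPM in those that passed on the receptor genes. The kinase gene Plk3 was at 20.5 and 67.1 CPM in other cells. The lowest was Sfn, which encodes 14-3-3 sigma, a restraint on G2 to M passage. WT had 1902 CPM and C3-TAg 533.3 CPM, a log2 ratio of -1.83 (-1.85 to -1.82), and it was also lower in hormone-sensing, casein-high and casein-low non-cycling cells, at -1.01, -1.998 and -2.27. Cd82, a tetraspanin gene, was lower at -0.85, and Btg2, an antiproliferative gene, was at -0.13 over all other cells, at -1.44 in casein-high and at 1.19 in casein-low non-cycling cells.

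**Figure D5:**
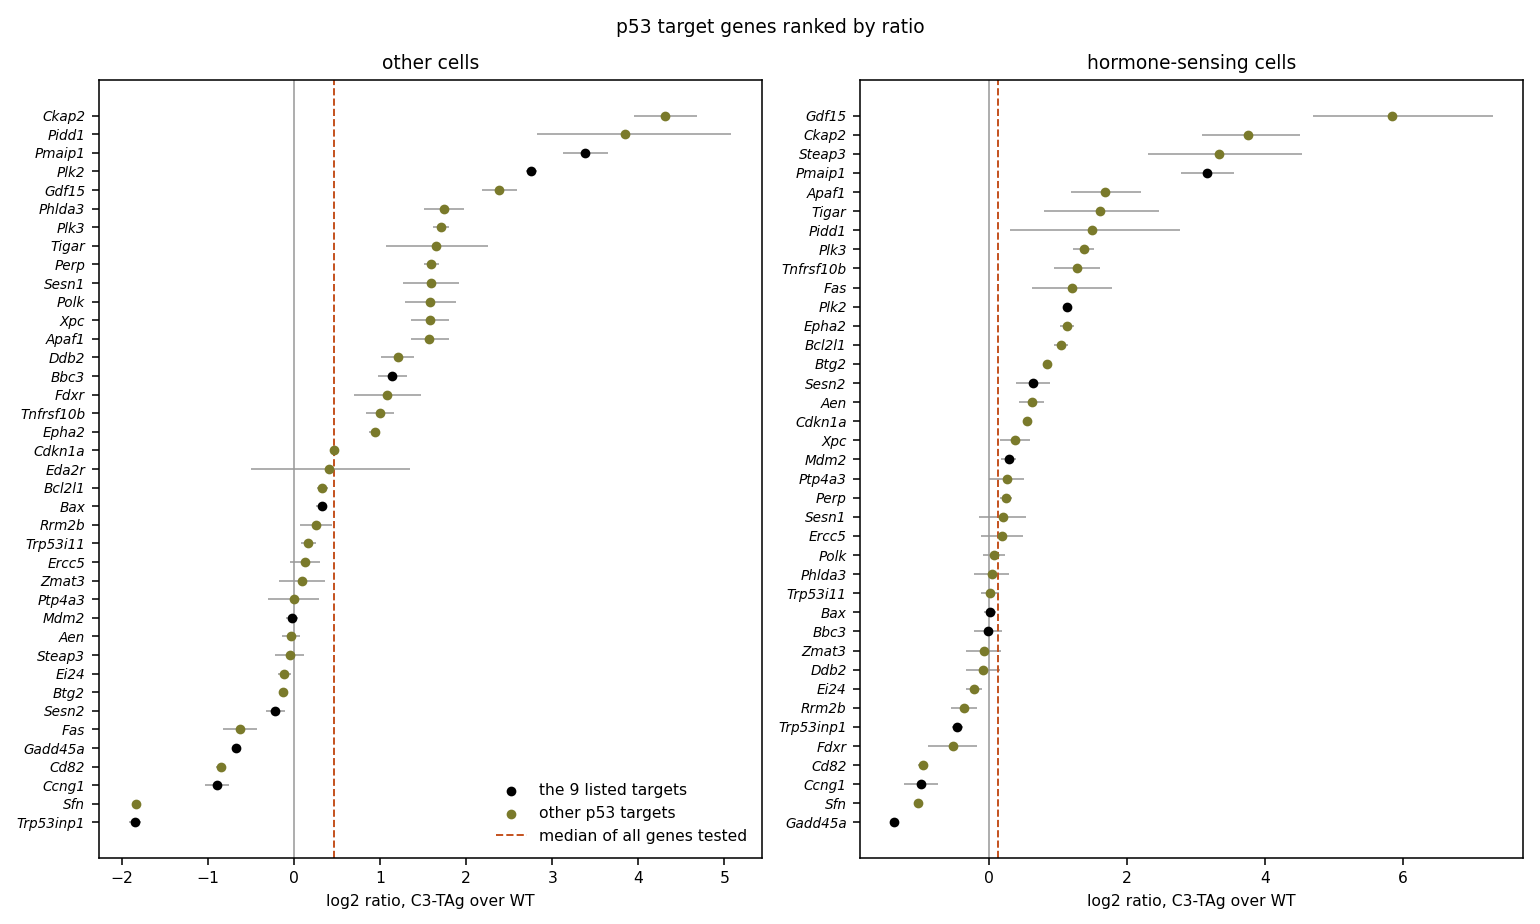
Log2 ratio of C3-TAg over WT (x axis, bars for the exact 95% counting interval) of the 9 listed targets (black) and the further p53 targets that were measured (olive), ranked, in other cells and in hormone-sensing cells, with a dashed line at the median of all genes tested. The targets spread on both sides of that median, from Trp53inp1 at -1.85 to Ckap2 at 4.31 in other cells.

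Of the regulators, 8 of 13 measured were higher and 0 lower over all other cells, 3 of 12 and 0 in hormone-sensing cells, 7 of 13 and 0 in casein-high and 6 of 13 and 1 in casein-low non-cycling cells. All genes gave 42.8% higher and 9.99% lower in the first of these, 22.9% and 9.14% in the second, 27.1% and 10.8% in the third and 32.1% and 13.3% in the last. Cdkn2a, whose ARF product binds MDM2, was at 0.155 CPM in WT other cells and 60.3 CPM in C3-TAg. Across C3-TAg states it stood at 1.65 and 5.54 CPM in casein-high non-cycling and cycling cells, 87.2 and 130.6 CPM in casein-low ones, and 108.3 CPM in hormone-sensing cells that passed on Areg against 2.25 CPM in those that passed on the receptor genes. A 3′ count does not separate ARF from the INK4A reading frame. Chek1, a replication checkpoint kinase gene, was at 1.09 and 23.6 CPM, and Rchy1, a ubiquitin ligase gene of p53, at 24.0 and 48.2 CPM in WT and C3-TAg other cells. Mdm4, the partner of MDM2, Cop1 and Usp7 were within 1.5-fold, at 0.34, 0.35 and 0.39. The family members Trp63 and Trp73 reached at most 4.45 CPM, in the WT casein-low cells, and 0.166 CPM, in the C3-TAg casein-low cycling cells.

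Some listed genes also belong to other stress programmes, whose lists were counted beside them. Of 8 genes of the ATF4 response, 3 were higher and 1 lower over all other cells, and 7 higher and 1 lower in hormone-sensing cells, where Sesn2 is among the 7. All genes gave 42.8% and 9.99% over all other cells, close to the first pair of counts, and 22.9% and 9.14% in hormone-sensing cells. Ddit3 and Psat1, the transcription factor CHOP and an enzyme of serine synthesis, were at 1.68 and 1.55 over all other cells and at 1.29 and 3.53 in hormone-sensing cells. The C3-TAg level of Psat1 was 42.0 CPM in the hormone-sensing cells that passed on Areg and 4.72 CPM in those that passed on the receptor genes, beside 1.34 CPM for the latter in WT. Ddit4, an mTORC1 inhibitor gene, was at -1.84 over all other cells and -1.49 in hormone-sensing cells. Asns and Trib3 were at 0.67 and -0.52 over all other cells. Of 8 immediate early genes, which rise with tissue dissociation as well as with growth signals, 3 were higher and 0 lower over all other cells, with Nr4a1, Atf3 and Egr1 at 3.03, 2.94 and 1.40 and Jun, Junb and Fosb at -0.16, -0.14 and 0.26. That count of higher genes is close to the 42.8% of all genes. Within C3-TAg non-cycling cells 7 of these 8 were higher in casein-low than in casein-high cells, against 26% of all genes, which is also the direction of Pmaip1, Plk2 and Gadd45a, and their part in those values was not tested. With the cells richest in immediate early RNA left out (at least 50 UMIs per 10000), the log2 ratio of Pmaip1 in that comparison was 4.13. Of 5 heat shock genes 1, Hsp90aa1, was higher over all other cells, at 0.79, against 42.8% of all genes, and Hspa1a, Hspa8, Hspa1b and Dnajb1 were at -0.54, -0.02, 0.01 and 0.06.

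The share of cells with at least 1 UMI was compared after each cell was thinned to 2000 UMIs, which left out 0 to 16 cells per state. A Pmaip1 UMI was found in 0.134% of WT casein-high non-cycling cells (0.0434 to 0.312%), 0.443% of WT hormone-sensing cells and 3.00% of WT casein-low cells (1.76 to 4.76%). In C3-TAg the shares were 0.472% and 0.683% in casein-high non-cycling and cycling cells, 2.72% in hormone-sensing cells and 6.40% and 9.60% (8.20 to 11.2%) in casein-low non-cycling and cycling cells. Without thinning the last share was 32.6% and that of WT casein-high cells 1.65%. No state known to lack Pmaip1 was available as a background, so the lowest shares may include free RNA. For Plk2 the thinned shares were 7.30% in WT casein-high and 25.5% in WT hormone-sensing cells, and 19.3% and 45.1% in the same states of C3-TAg. Gadd45a was found in 58.6% of WT (56.7 to 60.4%) and 33.0% of C3-TAg hormone-sensing cells (30.9 to 35.1%), and Trp53 in 13.5% and 22.2%. Median depth in these states was 7068 to 12122 UMIs per cell. The shares did not always follow the order of the CPM. Plk2, for example, was found in 43.5% of C3-TAg casein-low cycling cells, whose CPM was above that of the hormone-sensing cells.

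Genes with the most similar profile were sought across the 8 states among the 7441 genes that reached 20 CPM in any state, by Pearson's r of log2(CPM + 1), as a description. The states come from the same 2 libraries and are not independent. Pmaip1 was most like Msn, Tfe3 and Plk3 (r = 0.99 for each), the last of them a further p53 target. Plk2 was most like Vta1, Eps15l1 and Cabin1, Trp53 like Csrp2, Rce1 and Ints6, Bbc3 like Stk19 and Foxk1, and Bax like Diaph1, Tagln2 and Cpsf7. Of the lower genes, Ccng1 was most like P2ry6, Kazn and Mdfi, Trp53inp1 like H2afj, Npdc1 and H13, and Gadd45a like Rab15, Padi2 and Ilvbl. Sesn2 was most like Piezo1, Zfp451 and Adgrl3, and Mdm2, whose best value was the lowest of the 10, like Ssbp2 (r = 0.95), Hdac5 and Zcchc6. None of the genes so named was itself one of the 10.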

How the data were processed

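The deposited files hold raw UMI counts per gene and cell barcode, which the authors did not normalize. The submitters' processing notes name Cell Ranger 3.1.0 and mm10. The steps below used scanpy 1.11.5, scipy 1.17.1 and numpy 2.4.6 in Python 3.11.15, with pandas 2.3.3 for tables, matplotlib 3.10.9 for plots and edgeR 4.0.16 in R 4.3.3 for TMM factors only. Barcodes were kept from 500 genes and 1000 UMIs and up to 10% mitochondrial UMIs, and doublets called by Scrublet in each library were removed, 360 of 7406 WT and 544 of 8458 C3-TAg cells. The study submitted 10000 cells per sample. Counts were summed per library and state and divided by the state's total (CPM). The 95% intervals are exact Poisson for levels, conditional Poisson for ratios and Clopper-Pearson for shares, and cover counting error only. A side with no UMI was set to a floor of 3 counts. A gene was tested with at least 20 UMIs over both sides, and called from 1.5-fold. The ratio step was tested on simulated data. The genes and lists were chosen with earlier results of these data known. The text names all 10 members, from each further list up to 3 genes at either end of the ratio in other cells among those at 20 CPM or more, always Cdkn1a, Cdkn2a, Mdm4, Trp63 and Trp73, and the 3 genes most like each member, except that 1 of them is not reported here. 15 alternatives were planned and 2 were added after seeing the data. Gene coordinates are from GENCODE vM21 on GRCm38 and promoter windows from RefSeq on GRCm38.p6. The sources used here do not describe the sort gate, which can set the shares of the states.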

Additional observations from a re-analysis of the deposited data

How the results depend on the processing

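No called ratio of a member changed sign among the 1360 recomputed, and 1114 stayed inside the main counting interval. Both numbers include the settings that changed only the minimum of UMIs or the fold threshold, under which a ratio could not move. Of 272 counts of members, 241 stayed within 1.5 times. With TMM scaling the casein-high cycling comparison gained 1 lower member, the casein-low one had 0 higher, and casein-low over casein-high had 2 lower in each library. With the state limits doubled, C3-TAg hormone-sensing over other cells had 2 lower members. With the limits halved, the casein-high cycling comparison had 1 higher and 1 lower, the casein-low one 0 and 0, and WT casein-low over casein-high 4 higher and 2 lower. With the mean of each cell's CPM, hormone-sensing over other cells had 2 lower members in WT and 1 in C3-TAg. Thinned to 2000 UMIs, casein-high non-cycling cells had 1 higher member between libraries, the casein-high cycling comparison 1 higher, the casein-low one 0 lower, and hormone-sensing over other cells 2 lower in WT and 1 in C3-TAg. Without cells rich in immediate early RNA, casein-high non-cycling cells had 1 higher member and the casein-low cycling comparison 0. At a 2-fold threshold, C3-TAg over WT had 1 lower member in other cells, 2 higher and 1 lower in hormone-sensing cells, 1 higher in casein-high and 1 lower in casein-low non-cycling cells, the casein-low cycling comparison had 0 higher and 0 lower, C3-TAg casein-low over casein-high 2 higher, and C3-TAg hormone-sensing over other cells 1 higher. The score without Areg, and hormone-sensing cells below the cycling limit, each gave 2 lower members in that last comparison. The share of all genes was not recomputed under these settings, so these counts cannot set the members apart from other genes. The cause of these differences was not tested. No paired analysis was possible because each group has 1 library. Shares of cells with a UMI moved with depth in all 80 recomputed values. Low counts limit Pmaip1 in WT, where 65 UMIs over 3748 casein-high cells stand behind 1.39 CPM.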
